A study of Homo sapiens with 11 samples.

Results

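The genes described are those of the SR proteins and the heterogeneous nuclear ribonucleoproteins (hnRNPs), the main families of sequence-specific regulators of pre-mRNA splicing. The families were chosen with earlier results of these data known. Within them membership went by name alone, as every protein-coding gene in the deposited count table whose symbol starts with SRSF or HNRNP. There were 39 such genes of 61464 in the table, 12 SRSF and 27 HNRNP. The RNA came from HCT116, an established line of epithelial colorectal carcinoma cells that the labels describe as carrying a ras mutation. The cells were exposed for 48 h to GTEA7 (4 libraries), to GTEA1 (4 libraries) or to the solvent DMSO as the control (3 libraries). GTEA7 and GTEA1 are code names of triterpenoid extracts from the bracket fungus Ganoderma, and the labels give no dose. All groups are the same cell line with no genetic change named in the labels, and every library was labelled as batch 1. Polyadenylated RNA was sequenced on an Illumina NovaSeq.

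SR proteins carry RNA recognition motifs and a domain rich in arginine and serine repeats. They classically bind enhancers within exons and help the spliceosome recognise the adjoining splice sites. The hnRNPs coat nascent transcripts, and several of them oppose SR proteins by silencing exons, while others act on RNA stability, export or translation. Many genes of both families control their own level: the protein promotes an isoform of its own mRNA with a premature stop codon, which nonsense-mediated decay removes. In colorectal and other cancers SRSF1, SRSF3, SRSF6 and HNRNPA1 are known for favouring isoforms linked to proliferation.

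Most of these genes were lower with GTEA1 than with DMSO, and with GTEA7 they stood near the DMSO level. With GTEA1, HNRNPM fell 3.82-fold and SRSF3 fell 2.87-fold. HNRNPC was slightly higher than with DMSO, though not past the threshold when libraries were scaled by size alone. Summed over the 27 HNRNP genes, the level was 8543 to 9069 CPM (read counts scaled to library size with the TMM factors of edgeR) in GTEA7 libraries, 5867 to 6062 CPM in GTEA1 libraries and 8588 to 8776 CPM in DMSO libraries. Summed over the 12 SRSF genes it was 2322 to 2409 CPM with GTEA7, 1555 to 1625 CPM with GTEA1 and 2289 to 2322 CPM with DMSO. In both sums every GTEA1 library lay below every library of the other groups, while the ranges of GTEA7 and DMSO overlapped for the HNRNP sum and met at 2322 CPM for the SRSF sum. As plain shares of all counts, HNRNP genes held 0.870 to 0.917% with GTEA7, 0.554 to 0.572% with GTEA1 and 0.900 to 0.933% with DMSO. In bulk RNA, fewer cells of a kind and less RNA per cell cannot be told apart.

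**Figure D1:**
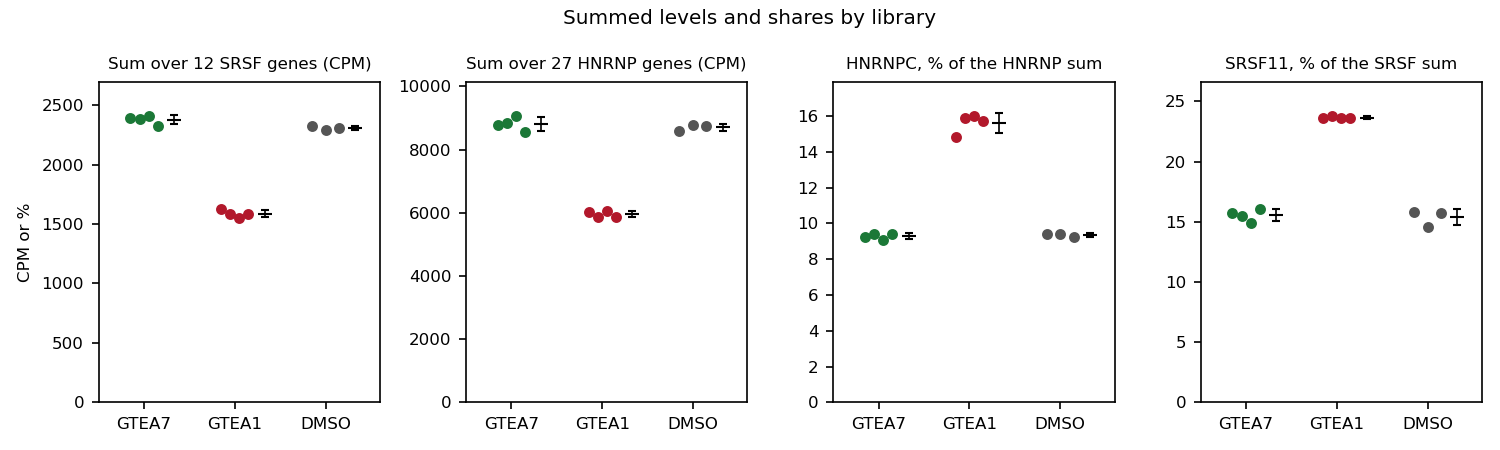
Each point is 1 library; the bar beside the points is the mean with its SD. The vertical axes give the summed level of the SRSF and of the HNRNP genes in CPM and the percentage of those sums held by HNRNPC and by SRSF11; the GTEA1 libraries sit at 1555 to 1625 CPM for SRSF and 5867 to 6062 CPM for HNRNP, below all others, while HNRNPC holds 14.8 to 16% of the HNRNP sum there.

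Of the 39 genes, 33 had enough counts to be tested, 11 SRSF and 22 HNRNP. HNRNPCL1, HNRNPCL2, HNRNPCL3 and HNRNPCL4, intronless relatives of HNRNPC, and the readthrough transcript HNRNPUL2-BSCL2 had 0 counts in every library. SRSF12 had 5, 4, 5 and 2 counts with GTEA7, 0, 2, 0 and 2 with GTEA1 and 3, 7 and 3 with DMSO, too few for a test. The libraries held 13742326 to 19304211 counts each. On the first principal component of all tested genes, with 84.2% of the variance, GTEA1 libraries stood apart from the rest, and the second, with 4.75%, separated GTEA7 from DMSO. GTEA1 replicate 1 stood apart from the other 3 GTEA1 libraries on the third component (1.8%). The epithelial markers EPCAM, KRT8, KRT18, KRT19, CDH1 and CDX2 were present, at means of 10.2 to 1047 CPM, and VIL1 was near 0. Of the 6 fibroblast markers COL1A1 was at 43.4 CPM and the other 5 were under 2 CPM, with a sum of 36.8 to 46.0 CPM for GTEA7, 38.3 to 46.4 CPM for GTEA1 and 53.9 to 55.4 CPM for DMSO, the 5 endothelial markers summed to at most 4.40 CPM in any library, and the 7 leukocyte markers summed to 1.07 to 1.89 CPM with GTEA7, 2.13 to 2.53 CPM with GTEA1 and 1.24 to 1.73 CPM with DMSO, with CD3E at 0. The summed level of the 7 epithelial markers was 2228 to 2324 CPM with GTEA7, 2717 to 2847 CPM with GTEA1 and 2232 to 2381 CPM with DMSO. Both the epithelial and the leukocyte sum were higher in every GTEA1 library than in any GTEA7 or DMSO library, and their part in the results was not tested.

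The genes at the ends of the range in GTEA1 were HNRNPM (ENSG00000099783) and SRSF3 (ENSG00000112081) among those that fell and HNRNPC (ENSG00000092199) and SRSF4 (ENSG00000116350) among those that rose. HNRNPM encodes a GU-binding hnRNP that silences exons, and SRSF3 the smallest SR protein, an exporter of mRNA as well as a splicing activator. HNRNPC binds uridine tracts as a tetramer, and SRSF4 is a long SR protein with an extended arginine and serine domain. Their promoter windows are shown to set the sequence at the start of these 4 oppositely moving genes side by side. Each window holds 250 bases before and 50 from the transcription start (RefSeq, GRCh38.p14), read along the gene. HNRNPM lies on the plus strand at chr19:8444725-8445024, HNRNPC on the minus strand at chr14:21269393-21269692, SRSF3 on the plus strand at chr6:36594112-36594411 and SRSF4 on the minus strand at chr1:29181851-29182150. Capitals mark matches, on either strand, to 6 motifs: CCAAT (the box bound by NF-Y, ATTGG on the opposite strand), CACGTG (an E-box, bound by MYC and related factors), TGATGNAA (the ATF4 element), TGACNNNGC (the core of the antioxidant response element), CCGGAAG (an ETS site) and GCGGGAA (an E2F site).
HNRNPM: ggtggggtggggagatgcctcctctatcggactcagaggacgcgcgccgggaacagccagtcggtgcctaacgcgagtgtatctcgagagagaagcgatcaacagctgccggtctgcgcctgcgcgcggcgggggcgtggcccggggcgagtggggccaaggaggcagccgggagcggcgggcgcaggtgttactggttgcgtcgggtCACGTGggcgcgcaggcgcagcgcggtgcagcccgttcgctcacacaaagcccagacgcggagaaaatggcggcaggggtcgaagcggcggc
HNRNPC: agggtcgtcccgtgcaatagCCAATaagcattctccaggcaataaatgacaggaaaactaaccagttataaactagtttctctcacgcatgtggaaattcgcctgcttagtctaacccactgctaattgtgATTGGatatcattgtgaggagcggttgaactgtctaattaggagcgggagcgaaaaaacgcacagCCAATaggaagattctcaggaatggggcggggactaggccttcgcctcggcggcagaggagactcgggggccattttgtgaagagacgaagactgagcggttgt
SRSF3: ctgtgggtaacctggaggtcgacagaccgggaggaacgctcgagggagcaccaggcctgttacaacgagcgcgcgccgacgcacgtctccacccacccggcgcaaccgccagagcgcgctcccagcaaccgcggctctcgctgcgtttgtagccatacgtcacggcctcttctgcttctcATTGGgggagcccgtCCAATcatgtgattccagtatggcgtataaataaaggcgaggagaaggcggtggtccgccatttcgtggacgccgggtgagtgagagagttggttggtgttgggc
SRSF4: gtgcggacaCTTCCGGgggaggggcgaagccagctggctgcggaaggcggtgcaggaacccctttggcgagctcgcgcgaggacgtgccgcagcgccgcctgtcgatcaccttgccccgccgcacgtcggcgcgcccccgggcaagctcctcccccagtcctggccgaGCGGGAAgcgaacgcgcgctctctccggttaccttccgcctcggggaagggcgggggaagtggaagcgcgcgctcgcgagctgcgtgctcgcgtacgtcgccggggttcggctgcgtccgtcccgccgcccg
The window of HNRNPM held 1 E-box, that of HNRNPC 3 CCAAT boxes, that of SRSF3 2 CCAAT boxes, and that of SRSF4 1 ETS and 1 E2F site, and no match overlapped another. Of the 39 genes 35 had a window. CCAAT occurred in 18 of these 35 windows (51.4%) against 34.6% of all 35116 windows of that length, CACGTG in 7 of 35 against 7.26%, and GCGGGAA in 8 (22.9%) against 6.55%. TGACNNNGC occurred in 6 (17.1%) against 13.3%, CCGGAAG in 5 (14.3%) against 10.3%, and TGATGNAA in 0 of 35 against 3.62%. Of the 25 genes with a window that fell with GTEA1, 13 held CCAAT, and so did 2 of the 5 tested genes that did not fall. The windows with CCAAT include those of HNRNPCL1, HNRNPCL2 and HNRNPUL2-BSCL2, which had 0 counts. The 35116 windows were not limited to expressed or protein-coding genes, so these shares do not compare like with like. These matches describe letters in a window and not bound sites.

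With GTEA1 against DMSO, 31 of 33 tested genes passed an adjusted p under 0.05 in edgeR's quasi-likelihood test (93.9%), against 71.8% of all 17963 genes tested. Of these, 28 fell (84.8%), against 36.2% of all genes, and 3 rose (HNRNPC, SRSF4 and SRSF11), against 35.6%. Among genes with a mean of at least 5 CPM, which is nearer to the level of these families, 80.8% passed and 37.7% fell. The median log2 fold change was -0.646 over 11 SRSF genes and -0.544 over 22 HNRNP genes, and -0.00779 over all genes tested. In 29 of 33 genes (87.9%) the GTEA1 and DMSO libraries did not overlap, as in 68.7% of all genes and 77.9% of those with at least 5 CPM. Of the 33 genes 6 (SRSF3, SRSF8, SRSF2, SRSF7, HNRNPM and HNRNPR) fell at least 2-fold, against 12.4% of all genes. Among genes with a mean of at least 5 CPM the share was 7.42%. Scaling by library size alone moved the median of all genes to -0.167, and 29 of the 33 genes then passed as lower and 0 as higher, against 45.5% and 26.9% of all genes. The labels do not say that libraries came from separate cultures, so the p-values measure only the spread between these libraries.

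**Figure D2:**
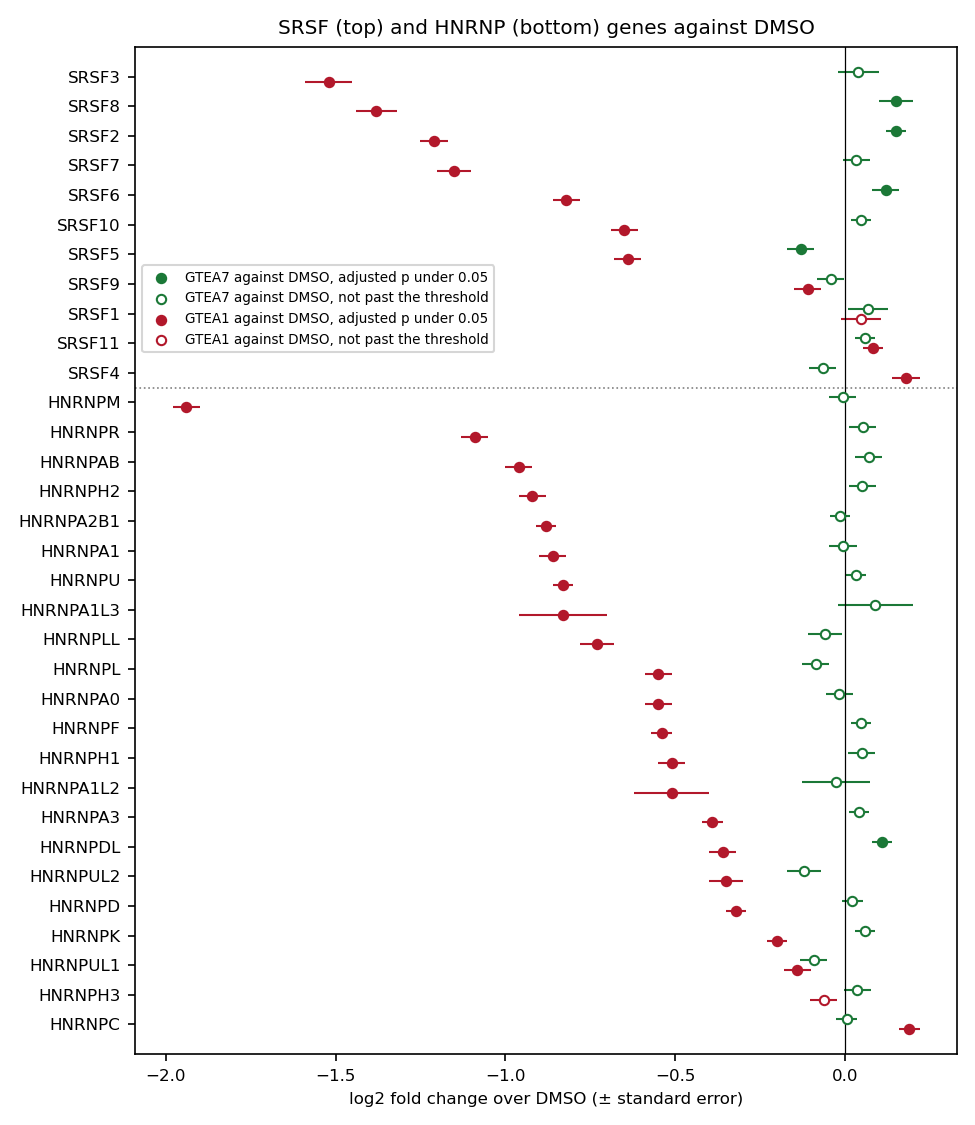
Log2 fold change over DMSO (horizontal axis) with its standard error for the 33 tested genes, SRSF above the dotted line and HNRNP below it, with GTEA7 drawn above GTEA1 in each row. Filled points passed an adjusted p under 0.05; the GTEA1 values reach from -1.94 (HNRNPM) to 0.189 (HNRNPC), the GTEA7 values from -0.132 to 0.153, and the rises of HNRNPC, SRSF4 and SRSF11 with GTEA1 did not pass under scaling by library size alone.

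Among the SR proteins, the largest falls were in 2 pairs of close paralogues. SRSF3 and SRSF7 are the short SR proteins that bind pyrimidine-rich or GA-rich motifs and couple splicing to mRNA export. SRSF3 had 314, 337, 343 and 299.7 CPM in the GTEA7 libraries, 125, 107, 105 and 103 CPM in the GTEA1 libraries and 300.4, 331 and 314 CPM in the DMSO libraries, the replicates being given in order. SRSF7, which has a zinc knuckle beside its RNA recognition motif, had 167, 165, 173 and 161 CPM with GTEA7, 83.8, 71.9, 71.4 and 67.6 CPM with GTEA1 and 160.2, 169 and 159 CPM with DMSO. Each GTEA1 library lay well under every DMSO and GTEA7 library in both genes, with GTEA1 replicate 1 the least low. Against DMSO the log2 fold change with GTEA1 was -1.52 ± 0.07, adjusted p = 4.3e-11 for SRSF3 and -1.15 ± 0.05, adjusted p = 2.4e-24 for SRSF7. As a share of the summed SRSF level, SRSF3 made up 12.9 to 14.2% with GTEA7, 6.48 to 7.69% with GTEA1 and 12.9 to 14.4% with DMSO.

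SRSF2, formerly SC35, is an SR protein found in nuclear speckles, and SRSF8 arose from it as a retrocopy. SRSF2 had 257, 252, 248 and 238 CPM in the GTEA7 libraries, 102, 94.9, 95.5 and 95.4 CPM in the GTEA1 libraries and 221, 224 and 226 CPM in the DMSO libraries. The paralogue SRSF8 was lower in level and had 50.4, 51.1, 50.4 and 48.7 CPM with GTEA7, 19.2, 17.2, 17.2 and 16.3 CPM with GTEA1 and 46, 43.6 and 46.5 CPM with DMSO. All GTEA1 libraries lay below all others, and in both genes every GTEA7 library lay above every DMSO library. GTEA7 and DMSO libraries did not overlap in 8 of the 33 tested SRSF and HNRNP genes (24.2%). Over all genes tested the share was 30.5%, and 39.9% of those with a mean of at least 5 CPM. With GTEA1 the log2 fold change over DMSO was -1.21 ± 0.04, adjusted p = 9.4e-33 for SRSF2 and -1.38 ± 0.06, adjusted p = 1.6e-26 for SRSF8. The pair is near-identical over part of its length, so reads may have been split or lost between them, and the values of each are uncertain to that extent.

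SRSF4, SRSF5 and SRSF6 form a subfamily with 2 RNA recognition motifs, and they moved apart with GTEA1. SRSF4 had 109, 111, 111 and 112 CPM in the GTEA7 libraries, 129, 130.5, 133 and 131 CPM in the GTEA1 libraries and 115, 114 and 118 CPM in the DMSO libraries. SRSF6, known for overexpression in colon and skin tumours, had 305, 311, 322 and 303 CPM with GTEA7, 169, 164, 149.7 and 162 CPM with GTEA1 and 288, 283 and 284 CPM with DMSO. SRSF5, whose rat orthologue is known as a gene induced in regenerating liver, had 240.3, 236, 241 and 235 CPM with GTEA7, 177, 157, 164 and 173 CPM with GTEA1 and 259, 263 and 261 CPM with DMSO. In GTEA1 libraries SRSF4 lay above every other library, whereas SRSF5 and SRSF6 lay below every other library. Against DMSO, SRSF4 rose with GTEA1 (0.18 ± 0.04, adjusted p = 3e-05), SRSF6 fell (-0.82 ± 0.04, adjusted p = 6.3e-26) and SRSF5 fell (-0.64 ± 0.04, adjusted p = 1.6e-21); scaled by library size alone, SRSF4 was at 0.0184 and did not pass. The ratio of SRSF4 to SRSF6 counts, which no library scaling can change, was 0.343 to 0.370 with GTEA7, 0.768 to 0.889 with GTEA1 and 0.402 to 0.415 with DMSO. GTEA7 libraries were thus the lowest and GTEA1 libraries the highest in this ratio, with no overlap between any groups.

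SRSF1 and SRSF9, close paralogues with purine-rich targets, changed little. SRSF1, the founding SR protein and a proto-oncogene, had 232, 214, 219 and 226 CPM in the GTEA7 libraries, 190.1, 236, 223 and 229 CPM in the GTEA1 libraries and 226, 205 and 207 CPM in the DMSO libraries. GTEA1 replicate 1 was the lowest of all 11 libraries and the other 3 GTEA1 libraries overlapped the top of the DMSO range. The log2 fold change over DMSO was 0.047 ± 0.06, adjusted p = 0.51 with GTEA1, and 0.109 without GTEA1 replicate 1, where it passed. It was -0.112 under scaling by library size alone and did not pass there. SRSF9 averaged 73.6 ± 2.41 CPM with GTEA1 and 79.2 ± 3.06 CPM with DMSO (SD, n = 4 and n = 3), a log2 fold change of -0.11 ± 0.04, adjusted p = 0.026, and this call was lost in 7 of 15 alternatives, among them leaving out any of GTEA1 replicates 2 to 4 (-0.1 to -0.0902) or DMSO replicate 1 (-0.0917) or 3 (-0.0912). The ratio of SRSF1 to SRSF2 was 0.849 to 0.948 with GTEA7, 1.87 to 2.48 with GTEA1 and 0.915 to 1.02 with DMSO. In that ratio all GTEA1 libraries stood above the rest.

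SRSF10 and SRSF11 are the more divergent genes of the family. SRSF10, a splicing repressor when dephosphorylated after heat shock, fell with GTEA1 (log2 fold change over DMSO -0.65 ± 0.04, adjusted p = 4.9e-22). SRSF11, an SR protein that binds the splicing factor U2AF, had 376, 369.9, 359 and 373 CPM in the GTEA7 libraries, 384, 378, 366 and 374 CPM in the GTEA1 libraries and 367, 335 and 361 CPM in the DMSO libraries. These ranges overlapped. Its log2 fold change with GTEA1 over DMSO was 0.083 ± 0.03, adjusted p = 0.03, the call was lost in 4 of 15 alternatives, and it turned to -0.075 under scaling by library size alone. It was also lost without GTEA1 replicate 1 (0.0729) and without DMSO replicate 2 (0.0441). As a share of the SRSF sum, SRSF11 made up 14.9 to 16.1% with GTEA7, 23.6 to 23.8% with GTEA1 and 14.6 to 15.8% with DMSO.

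**Figure D3:**
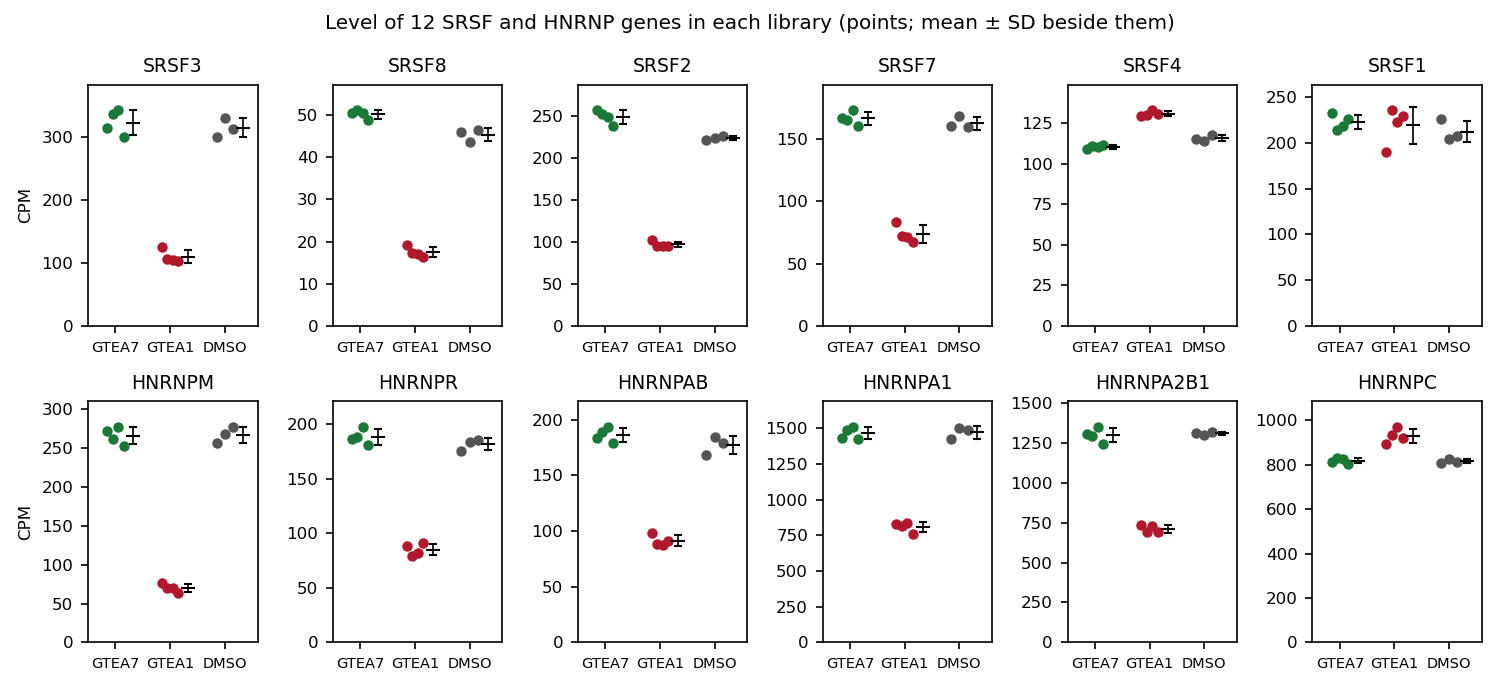
Level in CPM (vertical axis, from 0) of 6 SRSF and 6 HNRNP genes, with 1 point per library in the order GTEA7, GTEA1, DMSO and the mean ± SD beside the points. SRSF3 lies at 103 to 125 CPM in GTEA1 libraries and at 299.7 CPM or more elsewhere, HNRNPM at 62.9 to 76.9 CPM in GTEA1 libraries and at 252 CPM or more elsewhere, and HNRNPC at 893 to 970.1 CPM in GTEA1 libraries and at 830.0 CPM or less elsewhere; HNRNPC and SRSF4 did not pass under scaling by library size alone.

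Among the hnRNPs, 20 of 22 fell with GTEA1, and HNRNPM fell most. It had 272, 261, 277 and 252 CPM in the GTEA7 libraries, 76.9, 69.8, 70.1 and 62.9 CPM in the GTEA1 libraries and 256, 268 and 277 CPM in the DMSO libraries. No GTEA1 library came near the others, and the log2 fold change over DMSO was -1.94 ± 0.04, adjusted p = 4e-32. HNRNPM made up 2.95 to 3.10% of the HNRNP sum with GTEA7, 1.07 to 1.28% with GTEA1 and 2.98 to 3.16% with DMSO. HNRNPR, which stabilises and transports mRNA and in neurons binds RNA in axons, had 186, 188, 197 and 181 CPM with GTEA7, 88.1, 79.1, 82.2 and 90.6 CPM with GTEA1 and 176, 184 and 185 CPM with DMSO. HNRNPAB, an A/B-type protein that also binds DNA, had 183, 189, 193 and 179 CPM with GTEA7, 98.3, 88.5, 87.3 and 90.9 CPM with GTEA1 and 169, 185 and 179 CPM with DMSO. In both genes all GTEA1 libraries lay below all others. Over DMSO the log2 fold change with GTEA1 was -1.09 ± 0.04, adjusted p = 5.8e-29 for HNRNPR and -0.96 ± 0.04, adjusted p = 1.1e-26 for HNRNPAB.

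HNRNPA1 and HNRNPA2B1 are the core A/B proteins, which silence exons by binding UAG-type motifs and, in cancer cells, favour the M2 isoform of pyruvate kinase. HNRNPA1 had 1434, 1489, 1509 and 1422 CPM in the GTEA7 libraries, 830.4, 814, 834 and 761 CPM in the GTEA1 libraries and 1421, 1498 and 1489.6 CPM in the DMSO libraries. HNRNPA2B1 had 1303, 1289, 1349 and 1244 CPM with GTEA7, 737, 689, 727 and 692 CPM with GTEA1 and 1314, 1299.6 and 1317 CPM with DMSO. The GTEA1 libraries of both genes lay below all others, and the GTEA7 libraries overlapped those of DMSO. With GTEA1 the log2 fold change over DMSO was -0.86 ± 0.04, adjusted p = 4e-27 for HNRNPA1 and -0.88 ± 0.03, adjusted p = 4e-28 for HNRNPA2B1. The other A-type genes fell less, with log2 fold changes of -0.55 for HNRNPA0 and -0.39 for HNRNPA3. HNRNPA1L2 (-0.51) and HNRNPA1L3 (-0.83) are retrocopies of HNRNPA1, and HNRNPA1L3 carries the pseudogene name HNRNPA1P48 in GENCODE release 29. Both share sequence with HNRNPA1 and cannot be separated from it with certainty.

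The H and F group binds runs of guanines beside splice sites and polyadenylation sites. HNRNPH2, the copy on the X chromosome, had 95.6, 99.4, 101 and 92.5 CPM in the GTEA7 libraries, 49.3, 50.3, 51.8 and 47.5 CPM in the GTEA1 libraries and 90.6, 95.2 and 95.7 CPM in the DMSO libraries. Its GTEA1 libraries lay below the rest, and the log2 fold change over DMSO was -0.92 ± 0.04, adjusted p = 2.1e-24. HNRNPF (-0.54) and HNRNPH1 (-0.51) fell less, and HNRNPH3, which lacks 1 of the RNA-binding motifs of its relatives, did not pass (-0.063 ± 0.04, adjusted p = 0.17). HNRNPH3 passed as lower, at -0.222, under scaling by library size alone, and at -0.103 without DMSO replicate 2.

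The remaining hnRNPs also fell with GTEA1, over DMSO on the log2 scale. HNRNPU, a scaffold protein of nuclear chromatin, was at -0.83 and HNRNPLL, the regulator of CD45 splicing in lymphocytes, at -0.73. HNRNPL, which binds CA repeats, was at -0.55. HNRNPD, also called AUF1 and a decay factor for mRNAs with AU-rich elements, was at -0.32 and its relative HNRNPDL at -0.36. HNRNPUL2, a relative of HNRNPU, was at -0.35. The smallest falls of an HNRNP gene that passed were those of HNRNPK (-0.2), which binds C-rich tracts, and HNRNPUL1 (-0.14).

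HNRNPC was the only HNRNP gene of the 22 that rose. It had 812, 830.0, 824 and 804 CPM in the GTEA7 libraries, 893, 932, 970.1 and 920.3 CPM in the GTEA1 libraries and 809, 825 and 810.1 CPM in the DMSO libraries. Every GTEA1 library lay above every other library, with GTEA1 replicate 3 the highest. Against DMSO the log2 fold change with GTEA1 was 0.19 ± 0.03, adjusted p = 2.5e-06, and 0.0298 without passing under scaling by library size alone. Set against the median of all genes, the value was 0.197 under both scalings. A change of scaling moves all genes nearly alike, so this agreement was given in advance and adds no support. The ratios of HNRNPC to HNRNPA1 and to HNRNPM cannot depend on scaling either. Their larger shift includes the falls of HNRNPA1 (-0.86) and HNRNPM (-1.94) themselves. The ratio of HNRNPC to HNRNPA1 was 0.546 to 0.566 with GTEA7, 1.07 to 1.21 with GTEA1 and 0.544 to 0.569 with DMSO, and that of HNRNPC to HNRNPM was 2.97 to 3.19 with GTEA7, 11.6 to 14.6 with GTEA1 and 2.92 to 3.16 with DMSO. As a share of the HNRNP sum it made up 9.08 to 9.41% with GTEA7, 14.8 to 16% with GTEA1 and 9.24 to 9.42% with DMSO. The processed pseudogene HNRNPCP2, which shares sequence with HNRNPC, moved the same way (0.6 ± 0.08, adjusted p = 5.6e-09 over DMSO).

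Levels of different genes were compared per kilobase of the longest principal coding transcript in GENCODE release 29, an order that depends on the transcript chosen. Per kilobase, HNRNPC led in all groups, at 477 ± 6.9 CPM with GTEA7, 542 ± 19.0 with GTEA1 and 475 ± 5.3 with DMSO (mean ± SD). With DMSO it was followed by HNRNPA2B1 at 375 ± 2.7, HNRNPA1 at 357 ± 10.0, HNRNPA3 at 272 ± 4.5 and HNRNPK at 229.5 ± 2.2 CPM per kilobase. With GTEA1 these 4 followers lay between 197 ± 8.2 (HNRNPA1) and 208 ± 4 CPM per kilobase (HNRNPA3) and neighbours did not differ beyond their spread. HNRNPM stood at rank 9 of the HNRNP genes with GTEA7, 16 with GTEA1 and 8 with DMSO. Among SRSF genes, the leading level with DMSO was that of SRSF10 at 154 ± 3.5 CPM per kilobase, next to SRSF1 at 140.5 ± 7.7. With GTEA1, SRSF1 led at 145 ± 13.0, and SRSF11 at 99.3 ± 2 and SRSF10 at 98.7 ± 3.5 did not differ beyond their spread. SRSF3 stood at rank 6 with GTEA7, 10 with GTEA1 and 6 with DMSO.

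**Figure D4:**
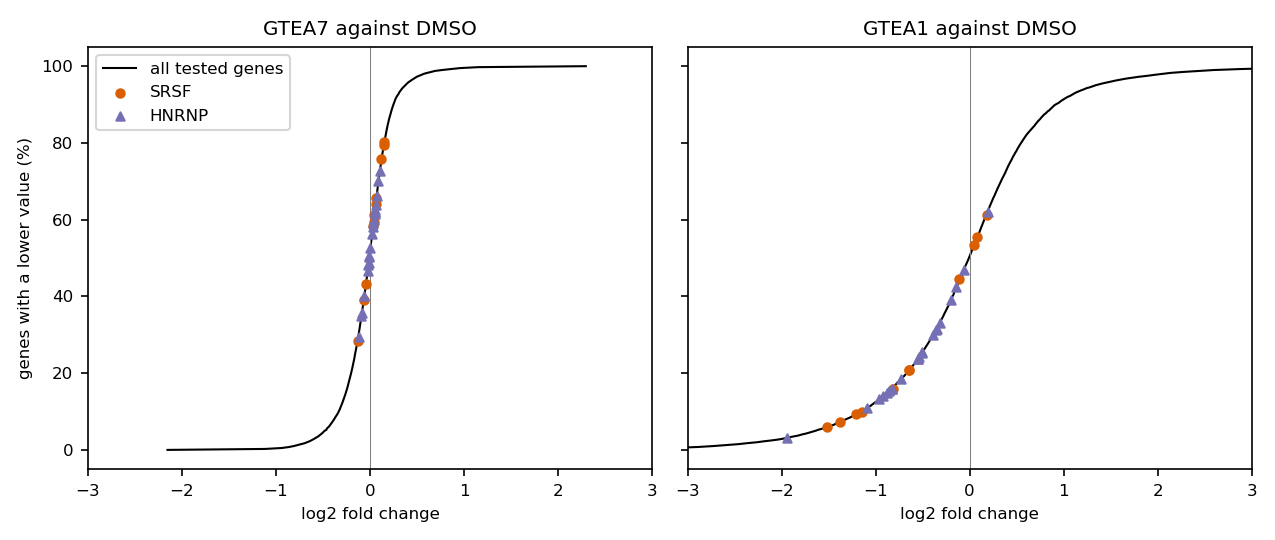
The line gives, for all 17963 genes tested, the percentage of genes (vertical axis) with a log2 fold change lower than the value on the horizontal axis, which is cut at -3 and 3; circles are SRSF and triangles HNRNP genes, GTEA7 against DMSO on the left and GTEA1 against DMSO on the right. With GTEA1 the genes spread from the low tail at HNRNPM (-1.94) to just above the middle at HNRNPC (0.189), and with GTEA7 they stay between -0.132 and 0.153.

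With GTEA7, set against the same 3 DMSO libraries, the families stood close to the control. Of 33 genes 5 passed in edgeR's test (15.2%), against 22.5% of all genes and 31.6% of those with a mean of at least 5 CPM. The pooled share was thus below both, but the families differed. Of 11 SRSF genes 4 passed (36.4%), above both shares, and of 22 HNRNP genes 1 passed (4.55%). SRSF2, SRSF6, SRSF8 and HNRNPDL rose and SRSF5 fell, none of them 2-fold, beside 12% of all genes that rose and 10.4% that fell. Among genes with a mean of at least 5 CPM 17.9% rose and 13.7% fell. The log2 fold change over DMSO was 0.15 ± 0.03, adjusted p = 0.00075 for SRSF2, 0.15 ± 0.05, adjusted p = 0.024 for SRSF8 and 0.12 ± 0.04, adjusted p = 0.0084 for SRSF6. SRSF5, at -0.13 ± 0.04, adjusted p = 0.0043, was the largest fall. All values lay between -0.132 and 0.153, with a median of 0.0373, and 8 genes had an unadjusted p under 0.05. HNRNPDL had 361, 354, 372 and 346 CPM in the GTEA7 libraries, 268, 245, 263 and 263 CPM in the GTEA1 libraries and 332, 328 and 339 CPM in the DMSO libraries. Its GTEA7 libraries lay above those of DMSO by a narrow gap, at 0.11 ± 0.03, adjusted p = 0.022. Without DMSO replicate 2 only 3 genes passed, since SRSF8 (0.12) and HNRNPDL (0.0956) were lost. SRSF8 was also lost without GTEA7 replicate 2 (0.139), and HNRNPDL without GTEA7 replicate 3 (0.0907) or DMSO replicate 1 (0.102). Without DMSO replicate 1, HNRNPUL1 passed as a second fall (-0.117). Scaled by library size alone, SRSF2 (0.103) passed as higher and 5 genes as lower, against 6.99% and 16.4% of all genes, so the split into rises and falls depends on the scaling.

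The direct comparison of GTEA7 with GTEA1 shares a group with each of the comparisons above and is given for size. In edgeR's test 29 of 33 genes passed (87.9%), against 72.7% of all genes, 27 of them higher with GTEA7, against 36.2% of all genes. Among genes with a mean of at least 5 CPM 81.2% passed and 38.7% were higher. The log2 fold change of GTEA7 over GTEA1 was 1.93 ± 0.04, adjusted p = 7.1e-33 for HNRNPM, 1.15 for HNRNPR and 1.03 for HNRNPAB. Among SR genes it was 1.56 ± 0.06, adjusted p = 1.6e-11 for SRSF3, 1.53 for SRSF8 and 1.36 for SRSF2. SRSF4 (-0.24 ± 0.03, adjusted p = 1.2e-08) and HNRNPC (-0.18 ± 0.03, adjusted p = 8.7e-07) were lower with GTEA7, as were 36.4% of all genes. SRSF1, SRSF9, SRSF11 and HNRNPUL1 did not pass. By library size alone all 33 passed, 31 higher and 2 lower, against 42.6% and 30.4% of all genes. The extracts are mixtures under code names with no stated dose, so the difference belongs to the treatments as given.

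Gene-level counts hold no isoform information, so changes in poison exons or other splicing of these genes were not analysed here. In GENCODE release 29 a transcript annotated as a target of nonsense-mediated decay was listed for all 11 tested SRSF genes and for 13 of 22 tested HNRNP genes (59.1%), against 42.8% of all tested protein-coding genes. Among those with a mean of at least 5 CPM it was 45.4%. The median number of listed transcripts was 9 for SRSF and 11 for HNRNP genes, against 7 for all tested protein-coding genes. The shares were not adjusted for this.

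Among the proteins that work with SR proteins and hnRNPs, some genes rose and others fell with GTEA1, as did 35.6% and 36.2% of all genes. Of 11 hnRNPs with other symbols, 4 rose and 6 fell over DMSO, or 3 and 6 by library size alone. Among those that fell were RBMX (-1.19 ± 0.04, adjusted p = 2.8e-33), the X-linked hnRNP G, and SYNCRIP (-0.59), the paralogue of HNRNPR. The 4 that rose were PTBP3 (0.29), PCBP1, PCBP2 and PCBP3. Of these, PCBP1 and PCBP3 were low in level, at 1.88 and 5.05 CPM with GTEA1. PCBP2 barely passed in edgeR's test (0.089 ± 0.04, adjusted p = 0.049). Of 21 SR-related proteins 10 rose and 6 fell, with RBM39 at 0.68 ± 0.03, adjusted p = 1.3e-23, LUC7L2, a U1-associated protein, at 0.61 and TRA2A, which binds GAA-type enhancers, at -0.57. Scaled by library size alone, 3 of these 21 rose and 11 fell. Of 43 core spliceosome genes 15 rose and 24 fell (median -0.151), or 8 and 28 by library size alone. SNRPD3, a core Sm protein, fell most at -1.98 ± 0.05, adjusted p = 3.4e-35, and DDX23 (-0.84) and SNRNP70 of the U1 particle (-0.71) fell too. Of 22 tested tissue-type or other regulators of alternative splicing 9 rose and 10 fell, and the epithelial regulator ESRP1 (0.95 ± 0.04, adjusted p = 1.5e-28), QKI (1.18) and MBNL2 (0.85) rose under either scaling.

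The enzymes and carriers of SR proteins were also tested. SR protein kinases of the CLK, SRPK and related families phosphorylate the arginine and serine domain: of 9, 3 rose and 3 fell with GTEA1 over DMSO (3 and 4 by library size alone), including SRPK2 (0.38), CLK2 (-0.55) and PRPF4B (-0.37). With GTEA7, 4 of the 9 fell and 0 rose, and they were the 4 CLK kinases, with CLK4 at -0.62 ± 0.08, adjusted p = 1.2e-07, CLK1 at -0.71 ± 0.09, adjusted p = 0.00018, CLK2 at -0.29 and CLK3 at -0.23. All 4 also fell by library size alone, at -0.763 to -0.277. TNPO1, which imports HNRNPA1 into the nucleus (0.77 ± 0.04, adjusted p = 3.4e-23), and TNPO3, which imports SR proteins (0.4), rose with GTEA1, and TNPO2 fell (-0.12). None of these 3 passed with GTEA7. Of 8 genes of arginine methylation, 1 rose and 2 fell with GTEA1: PRMT5 (0.21), PRMT6 (-1.26) and the PRMT5 partner WDR77 (-0.69), or 0 and 7 by library size alone. Of 15 genes of nonsense-mediated decay and the exon junction complex 3 rose and 6 fell, with SMG9 at 1.16, RBM8A at -0.75 and EIF4A3 at -0.54, or 3 and 10 by library size alone.

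With GTEA7 against DMSO 12% of all genes rose and 10.4% fell, and the numbers in these lists depend on the scaling. With GTEA7 over DMSO 2 hnRNPs with other symbols rose and 3 fell, 1 SR-related gene rose and 3 fell (0 and 7 by library size alone, 5 and 3 by DESeq2 size factors), and 10 core spliceosome genes rose and 4 fell, which became 3 and 8 by library size alone. Of the alternative splicing regulators 0 rose and 6 fell, of the arginine methylation genes 3 rose and 0 fell, and of the decay genes 0 rose and 2 fell. By library size alone these were 0 and 9, 1 and 2, and 0 and 5, and for the hnRNPs with other symbols 1 and 4. MYC, a transcription factor reported to raise SRSF1 and HNRNPA1 transcription in other cells, stood at 0.36 ± 0.03, adjusted p = 1.1e-11 with GTEA7 and at -0.06 ± 0.04, adjusted p = 0.12 with GTEA1, both over DMSO. By library size alone it was at 0.307 with GTEA7 and at -0.219 with GTEA1, and passed in both.

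**Figure D5:**
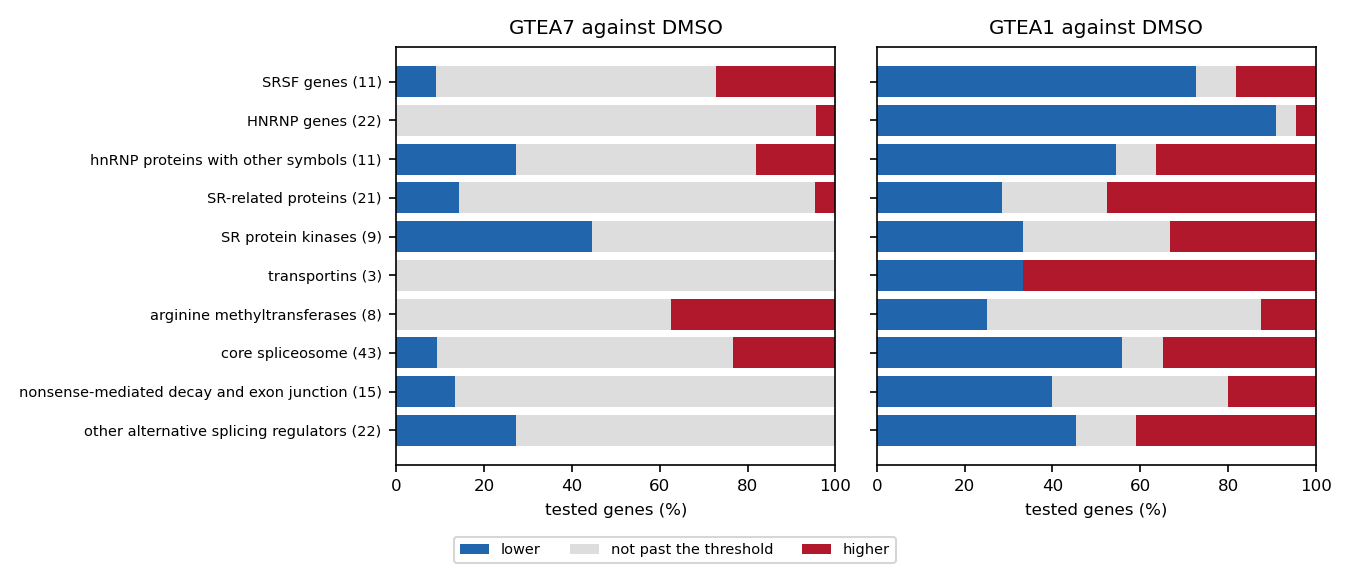
Bars give the percentage of tested genes in each list (number tested in brackets) that were lower, not past the threshold, or higher, against DMSO, GTEA7 on the left and GTEA1 on the right. With GTEA1, 72.7% of SRSF and 90.9% of HNRNP genes were lower, while the related lists held both directions with numbers that depend on the scaling; under scaling by library size alone no SRSF or HNRNP gene was higher with GTEA1.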

How the data were processed

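Per the labels' protocols, TRIzol-extracted RNA went into NEBNext Ultra libraries. The authors deposited a table of raw read counts per gene, and the aligner STAR and the counter HTSeq 0.5.4 are among the tools in the submitters' processing notes, beside DESeq 1.10.1, SAMtools 0.1.18, GATK and Picard. The sources used here give neither genome build and annotation nor the strand setting of the counting. Reads of overlapping, antisense or near-identical genes (HNRNPA1 with its retrocopies and pseudogenes, SRSF2 with SRSF8, HNRNPC with its pseudogenes) may be shared or lost. Symbols came from a table of gene names that matched 60370 of 60624 Ensembl IDs, and gene types, transcripts and lengths from GENCODE release 29. IDs of other kinds held 0.727% of counts and were kept in the fit.

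Groups came from the labels. Genes with enough counts were kept by filterByExpr with the groups, leaving 17963. A group-means model of all 11 libraries with TMM factors was fitted in edgeR 4.0.16 (R 4.3.3, robust quasi-likelihood), and each comparison was tested by its F test, with Benjamini-Hochberg adjustment over all genes and a threshold of 0.05. A value after ± is the standard error of a log2 fold change (the log2 fold change divided by the square root of F) or the SD of CPM, with n = 4, 4 and 3 for GTEA7, GTEA1 and DMSO. CPM uses TMM-scaled library sizes. The fit was tested on simulated counts with known changes. Far fewer genes changed there than passed with GTEA1, so that check does not cover such a setting. Library totals were 13742326 to 19304211 counts.

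The genes, the lists of partners and the motifs were chosen with earlier results of these data known. By rule, values per library are given for the 4 SRSF and 6 HNRNP genes with the largest passing changes in each extract against DMSO. They needed a mean of at least 1 CPM, and 3 and 3 genes were chosen alike in GTEA7 against GTEA1. Of the genes that the processing changes, some have values per library and others do not. From each list up to 3 genes with the smallest adjusted p are named. A gene that this rule would name is not reported here. CLK3, PTBP3, the PCBP genes, HNRNPCP2 and the other pseudogenes were named with their values known, and the ratios were likewise chosen late. The alternatives were DESeq2 size factors, library size only, no low-count filter, a filter of 1 CPM or more in 3 or more libraries, a block for the replicate number, limma-voom (limma 3.58.1), the Wald test of DESeq2 1.42.0, only the compared groups, and leaving out each library in turn. Both other scalings were also applied to the partner lists, an addition made after seeing the data.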

Additional observations from a re-analysis of the deposited data

Results flagged for a closer look

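SRSF2 in GTEA1 replicate 1, at 102 CPM, lay apart from the other 3 GTEA1 libraries, which were at 94.9 to 95.5 CPM. Its gap to the nearest of them was 0.914 of the range of the group, above Dixon's 95% critical value for 4 libraries. It was the only such value among 66 sets of 4 libraries, and chance gives about 1 in 20. All 4 values lie far below the DMSO libraries (221 to 226 CPM).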

How the results depend on the processing

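With GTEA1 against DMSO, 29 to 31 genes passed and 27 to 29 were lower over all alternatives, and 27 of 33 genes kept direction and call in each. With GTEA7 against DMSO 9 of 33 did, and with GTEA7 against GTEA1 28. Scaled by library size only, the number higher was 0 with GTEA1 and 1 with GTEA7, where 5 were lower; the all-gene median moved to -0.167 and -0.0597, while SRSF2 with GTEA7 passed in all 15 alternatives (0.103 to 0.178). The number lower with GTEA7 was 2 with at least 1 CPM in at least 3 libraries, 2 with limma-voom and 3 with only the compared groups; with numbers this small the cause was not tested. Leaving out 1 library gave 30 to 31 genes with GTEA1 (2 to 3 higher, 27 to 29 lower), 3 to 5 with GTEA7 (2 to 4 higher, 1 to 2 lower), fewest without DMSO replicate 2, and 28 to 30 for GTEA7 against GTEA1 (26 to 28 higher, 2 lower), where HNRNPH3 was lost without GTEA7 replicate 3 (0.0791) and SRSF9 gained without GTEA1 replicate 1 (0.0892).

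Signs turned only in small values. By library size only they were SRSF1 (-0.112) and SRSF11 (-0.075) with GTEA1 against DMSO, SRSF11 (0.0846) with GTEA7 against GTEA1, and, with GTEA7 against DMSO, SRSF3 (-0.0122), SRSF7 (-0.0181), SRSF10 (-0.00313), HNRNPA3 (-0.00933), HNRNPC (-0.0458), HNRNPD (-0.028), HNRNPF (-0.00234), HNRNPH1 (-0.000755), HNRNPH2 (-0.000192), HNRNPH3 (-0.0132) and HNRNPU (-0.0187). With GTEA7 against DMSO, HNRNPA1 and HNRNPM turned under DESeq2 size factors (0.00318 and 0.00241), no filter (0.0092 and 0.00836) and the DESeq2 Wald test (0.00319 and 0.00222). Leaving out 1 library, the ranges there were -0.0385 to 0.0223 for HNRNPA0, -0.0298 to 0.0122 for HNRNPA1, -0.0768 to 0.0229 for HNRNPA1L2, -0.0413 to 0.186 for HNRNPA1L3, -0.0311 to 0.00836 for HNRNPA2B1, -0.00272 to 0.0173 for HNRNPC, -0.00195 to 0.0851 for HNRNPH3 and -0.0358 to 0.0215 for HNRNPM. With GTEA7 against GTEA1 the range was -0.0372 to 0.0564 for SRSF1.

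Libraries of the same replicate number did not deviate together (correlations of -0.0569 to 0.0463 over 10 pairs). Pairs of unlike number were alike in this, at -0.0564 to 0.0487 over 30 pairs. Values this near 0 over all genes cannot show whether the numbers pair the libraries, so pairing remains unknown. With the replicate block 31, 5 and 29 genes passed for GTEA1 against DMSO, GTEA7 against DMSO and GTEA7 against GTEA1, and with GTEA7 against DMSO HNRNPA1 (0.0155), HNRNPA2B1 (0.000217) and HNRNPM (0.0259) turned sign.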

Other observations

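Beside the protein-coding genes, 138 other genes with SRSF or HNRNP symbols stood in the table, 96 of them with any count, and 20 were tested, all of them pseudogenes. With GTEA1 against DMSO 3 of the 20 were higher and 9 lower, with GTEA7 against DMSO 0 were higher and 0 lower, and with GTEA7 against GTEA1 9 were higher and 4 lower, in edgeR's test. Of all genes tested 35.6% were higher and 36.2% lower in the first of these comparisons, 12% and 10.4% in the second, and 36.2% and 36.4% in the third. HNRNPCP2 averaged 17.4 ± 1.73 CPM with GTEA7, 22.8 ± 2.28 CPM with GTEA1 and 15.1 ± 0.901 CPM with DMSO. HNRNPA1P7 averaged 37.0 ± 1.43 CPM with GTEA7, 20.5 ± 3.07 CPM with GTEA1 and 35.7 ± 5.61 CPM with DMSO, and HNRNPA1P10 11.4 ± 0.423 CPM with GTEA7, 5.70 ± 1.06 CPM with GTEA1 and 10.6 ± 1.03 CPM with DMSO. The direction of these 3 was that of HNRNPC and HNRNPA1, whose reads they may share. Other HNRNPA1 pseudogenes, at means of 1.97 and 0.759 CPM with GTEA1, went against HNRNPA1. In edgeR's test HNRNPA1P59 (1.44 ± 0.28, adjusted p = 8.4e-06) and HNRNPA1P68 (1.64 ± 0.44, adjusted p = 0.00093) rose with GTEA1 over DMSO.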
